A study of Mus musculus with 15 samples.

Results

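The ID proteins and E proteins, 6 genes taken by name as a family, were described in eosinophils grown from mouse bone marrow. The inhibitors were Id1, Id2 and Id3 and the E proteins were Tcf3, Tcf4 and Tcf12, all found by symbol among the 25101 genes of the count tables. Marrow progenitors of BALB/c mice, not sorted beforehand, were cultured for 14 days, first in 100 ng/mL of the progenitor cytokines SCF and FLT3-L (days 0 to 3) and then in 10 ng/mL of interleukin 5, the growth factor of eosinophils (days 4 to 14). RNA-seq libraries were made from 2 samples, which form 1 group, so that no comparison between conditions was possible and no p-value is given. The labels do not say whether the libraries came from separate cultures or animals.

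E proteins are transcription factors with a basic helix-loop-helix fold. They pair with each other or with tissue-specific partners and bind a short DNA motif, the E-box. ID proteins have the helix-loop-helix but lack the basic stretch that touches DNA, and they form pairs with E proteins that cannot bind. The balance between these classes is known for its role in lymphoid fate, in which E proteins act, and for the growth of progenitors and the development of innate cells, in which ID proteins act.

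The libraries held 40306679 and 30465490 counts, and levels are given as CPM, a gene's count scaled to the library total. In these libraries 3 counts equal 0.0744 and 0.0985 CPM. Xist, which silences an X chromosome and was named after its values were seen, stood at 990 and 0.656 CPM in replicates 1 and 2, a larger difference than libraries of the same RNA would show. The culture carried the markers of its label: 13 of 13 eosinophil markers were detected, that is, at 1 CPM or more in both libraries, led by Prg2, a granule protein gene, at 3910 and 4195 CPM.

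All 6 members were detected, where 47.5% of all genes were. Reads of the inhibitors outnumbered those of the E proteins, with summed levels of 515 ± 5.70 CPM for Id1, Id2 and Id3 and 169 ± 4.74 CPM for Tcf3, Tcf4 and Tcf12 (mean ± SD over n = 2 libraries, here and below). The most abundant was Id2 and the least abundant Tcf4, whose mean, 33.4 CPM, lay near the median of all detected genes, 30.6 CPM. A longer transcript gives more reads at the same number of molecules, and no transcript lengths were used, so the order below is one of reads and not of molecules.

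**Figure D1:**
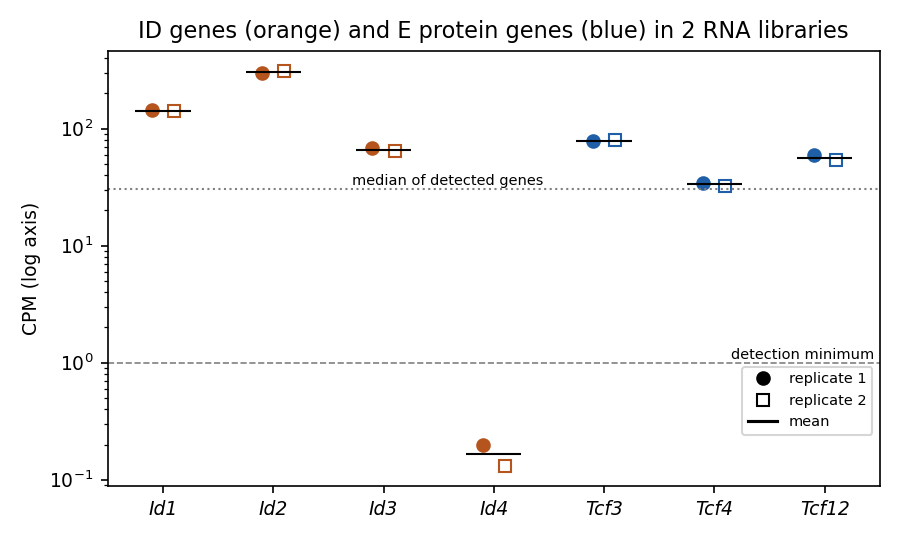
CPM (log axis) of the 3 ID genes and 3 E protein genes, and of Id4, in each RNA library (circle replicate 1, open square replicate 2, bar the mean of both), with the detection minimum of 1 CPM (dashed) and the median of the detected genes at 30.6 CPM (dotted). The 6 members lie above both lines in both libraries, while Id4 lies below 1 CPM.

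Among the inhibitors, Id2, which is needed for several innate lymphoid and myeloid cell types, had 299 CPM in replicate 1 and 314 in replicate 2, from 12038 and 9568 counts. Its mean of 306 ± 10.9 CPM ranked 629 of all genes, above 94.7% of the detected ones. Id1, a gene that BMP signals induce in many cells, stood at 144 and 140 CPM (5797 and 4279 counts). Its mean of 142 ± 2.38 CPM ranked 1650. The level of Id2 was 2.08 and 2.24 times that of Id1 in the 2 libraries. Id3, which restrains E proteins in lymphocytes, stood at 68.2 and 64.2 CPM (2748 and 1956 counts), with a mean of 66.2 ± 2.81 CPM and rank 3604. In both libraries the inhibitors therefore followed the order Id2, Id1, Id3, without overlap of their values. Id4, the remaining gene of the family and not a member, had 8 and 4 counts, 0.198 and 0.131 CPM, and was not detected.

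Among the E proteins, Tcf3, whose splice forms drive early B cell development, had the most reads, with 77.8 and 79.7 CPM (3134 and 2427 counts) and a mean of 78.7 ± 1.35 CPM at rank 3078. Tcf12, which pairs with Tcf3 in developing T cells, stood at 59.7 and 53.6 CPM (2408 and 1633 counts), with a mean of 56.7 ± 4.34 CPM at rank 4097. Tcf4, the E protein that specifies plasmacytoid dendritic cells, stood at 34.6 and 32.1 CPM (1395 and 979 counts), with a mean of 33.4 ± 1.75 CPM at rank 5698, above 52.2% of the detected genes. The symbols could be mistaken for 2 factors of the Wnt pathway that once carried the same names. These are listed separately in the tables as Tcf7l1, at 2.88 and 1.12 CPM, and Tcf7l2, at 6.28 and 7.71 CPM.

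In the order of reads over all 6 genes, Id2, Id1, Tcf3, Id3, Tcf12, Tcf4, the values of neighbours did not overlap between the libraries for any of the 5 pairs. The narrowest steps were those around Id3. Tcf3 exceeded Id3 by 12.5 CPM, 1.14 and 1.24 times in the 2 libraries, and Id3 exceeded Tcf12 by 9.52 CPM, 1.14 and 1.20 times, where the SDs of the 3 genes were 1.35, 2.81 and 4.34 CPM. With 2 libraries these gaps have no test.

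Inhibitors took most of the reads in both libraries. Of the reads of the 6 genes, Id1, Id2 and Id3 took 20583 against 6937 in replicate 1, which is 74.8% (95% exact Clopper-Pearson interval 74.3 to 75.3%), and 15803 against 5039 in replicate 2, which is 75.8% (75.2 to 76.4%). The mean was 75.3 ± 0.728%, or 3.05 ± 0.120 inhibitor reads for each E protein read. The intervals cover counting error only, with each count taken as an independent read. Id2 alone supplied 43.7% and 45.9% of the reads of the 6 genes. Without it, Id1 and Id3 still took 55.2 ± 0.0786% of the reads left, 1.23 for each E protein read. Id1 alone reached 0.842 ± 0.00955 and Id3 alone 0.392 ± 0.00563 of the reads of all E proteins, whereas Id2 alone reached 1.82 ± 0.116.

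**Figure D2:**
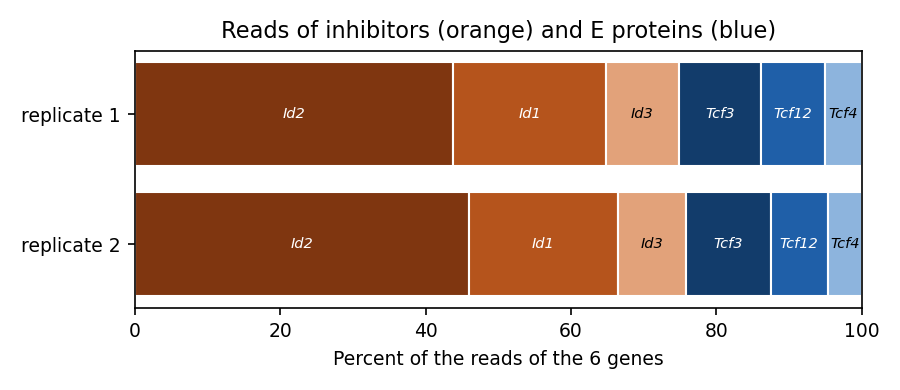
Share of each gene (percent of the reads of the 6 genes) in each RNA library, inhibitors in orange and E proteins in blue. Id2 holds the widest segment, 43.7% and 45.9%, and the orange part ends at 74.8% and 75.8%.

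The members differed little between the libraries. The level in replicate 2 divided by that in replicate 1 was 1.05 for Id2 (95% exact interval 1.02 to 1.08), 0.977 for Id1 (0.939 to 1.02) and 0.942 for Id3 (0.888 to 0.998). It was 1.02 for Tcf3 (0.971 to 1.08), 0.897 for Tcf12 (0.842 to 0.956) and 0.928 for Tcf4 (0.855 to 1.01). A difference of more than 1.5-fold was shown by 0 of 6 members, against 7.24% of the 11927 detected genes. The widest, 1.11-fold for Tcf12, was equalled or passed by 37.8% of the detected genes, and the median was 1.06-fold for the members and 1.08-fold for the detected genes. The interval of the ratio left out 1 for Id2, Id3 and Tcf12, 3 of 6, and for 46.0% of the detected genes. With scaling by the trimmed mean of M values (TMM) these were Id2, Tcf3 and Tcf12, and with DESeq2 size factors Id2 and Tcf3. All these intervals take each count as an independent read, and that of Id3 ended at 0.998, close to 1. If both reads of a pair were counted, which was not tested, the intervals are too narrow. Fewer members and a lower share than 46.0% could then result. A ratio between these libraries compares the libraries and not conditions.

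**Figure D3:**
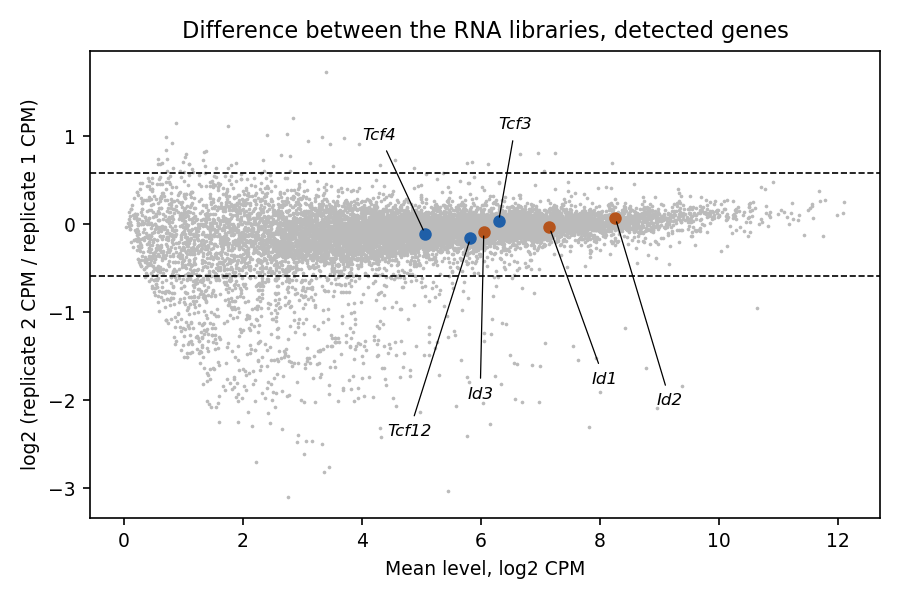
log2 of replicate 2 CPM over replicate 1 CPM against the mean log2 CPM for each detected gene (grey), with inhibitors in orange, E proteins in blue, and dashed lines at 1.5-fold. The 6 members lie close to 0 between the lines. Of the 863 genes beyond the lines, 805 were higher in replicate 1 and 58 in replicate 2. These counts use scaling by library total only.

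Genes listed as markers of other cells were detected in the cultures, and whether the eosinophils themselves expressed them was not tested. Bulk RNA cannot tell fewer cells of a type from less RNA in each. The part of other cells in the members' levels was not tested. Stromal and endothelial markers differed most: 11 of 15 were detected, all 11 were lower in replicate 2, 9 of them by more than 1.5-fold, and the list summed to 5091 and 1982 CPM, with Fn1, a matrix protein gene, at 2113 and 1090, Col1a2, a collagen gene, at 1040 and 291 CPM and Lum at 0. Beside this, Id1, Id3, Tcf4 and Tcf12 were also lower in replicate 2, at 0.977, 0.942, 0.928 and 0.897 of their level in replicate 1, while Id2 and Tcf3 were higher, at 1.05 and 1.02; with TMM or DESeq2 size factors Id1 was higher too. Macrophage markers were detected in 11 of 12 cases, with a median of 66.4 CPM, and summed to 3840 and 4210 CPM. The highest were Adgre1 at 1357 and 1558 CPM and Csf1r at 943 and 1053 CPM, and Marco was at 0. Neutrophil markers were detected in 12 of 12 cases, led by Ngp at 658 and 482 CPM and Ly6g at 388 and 381 CPM. Of the dendritic cell markers 9 of 12 were detected, and they summed to 418 and 642 CPM, mostly Cd74 at 224 and 365 CPM and H2-Aa at 110 and 193 CPM, of the machinery of antigen presentation. Of the genes linked to plasmacytoid dendritic cells in this list, Irf8 stood at 37.5 and 33.7, Bst2 at 31.0 and 27.3, Siglech at 1.14 and 1.35 and Ccr9 at 0.719 and 0.755 CPM, beside Tcf4 at 34.6 and 32.1 CPM. Irf8, Bst2 and Tcf4 were lower in replicate 2 and the other two were higher. Lymphoid markers were detected in 5 of 12 cases, with Cd3d at 19.2 and 21.5 and Cd79a at 6.20 and 6.60 CPM. Markers of mast cells and basophils were detected in 5 of 11 cases (Hdc at 149 and 104, Gata2 at 114 and 79.9 CPM, Mcpt4 at 0), progenitor markers in 8 of 10 (after Gata2, Myb at 56.6 and 40.4 CPM, Mecom at 0), and erythroid and megakaryocyte markers in 3 of 11 (Itga2b at 307 and 310, Tfrc at 146 and 160 CPM, with 3 globin genes at 0). Proliferation genes were detected in 10 of 10 cases and all 10 were lower in replicate 2, among them Mki67 at 492 and 420 and Top2a at 252 and 202 CPM.

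Of the other 97 genes around the ID and E proteins, listed by role, 61 (62.9%) were detected, beside 47.5% of all genes. Their median was 15.3 CPM, where that of all genes was 0.766 CPM. Since several lists hold widely expressed genes, this says nothing particular about the family.

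Partners with which E proteins pair in blood cells were detected in 3 of 6 cases. Lyl1, a factor of blood progenitors, stood at 242 and 242 CPM (242 ± 0.128), above each of the 3 E proteins in reads. Its relative Tal1, a factor of erythroid cells and stem cells, stood at 15.3 ± 0.515 CPM and Bhlha15, a factor of secretory cells, at 2.07 ± 0.373 CPM, and Nhlh1 had 0 counts. Of 15 partners from other tissues, such as the muscle and nerve factors Myod1 and Neurod1, 0 were detected and 12 had 0 counts in both libraries. Twist1, a factor of mesenchymal cells and named after its values were seen, had 126 counts (3.13 CPM) in replicate 1 and 12 (0.394 CPM) in replicate 2. It was lower in replicate 2, as were 805 of the 863 detected genes that differed by more than 1.5-fold with scaling by library total.

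Cofactors of E proteins were detected in 11 of 12 cases, with a median of 69.1 CPM. Ep300, an acetyltransferase that E proteins recruit, stood at 278 ± 8.88 CPM, Ldb1, which joins complexes of Lmo2 and helix-loop-helix factors, at 119 ± 2.04 CPM, and Crebbp, the relative of Ep300, at 94.1 ± 6.00 CPM. The corepressor gene Runx1t1 had 18 and 0 counts. All 7 genes for the stability of ID proteins were detected, with a median of 63.7 CPM. Anapc2, a subunit of the ubiquitin ligase that marks Id2 for degradation, stood at 140 ± 2.18 CPM. Usp1, which removes ubiquitin from ID proteins, stood at 72.7 ± 4.06 CPM and its activator Wdr48 at 78.9 ± 1.73 CPM.

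Signals that act on the ID genes were listed as ligands, receptors, transducers and inhibitors of the BMP and TGF-beta pathways, with Egr1, an immediate early transcription factor outside them, and were detected in 21 of 24 cases, with a median of 34.2 CPM. Tgfb1, the ligand, led at 386 ± 21.6 CPM, followed by Tgfbr2, its type II receptor, at 252 ± 1.92 CPM and Smad4, the common transducer, at 93.7 ± 1.73 CPM. Egr1 stood at 93.4 and 61.9 CPM, a 1.51-fold difference, and the receptor gene Acvr1 at 9.28 and 5.35 CPM, 1.73-fold. These were the 2 detected genes of the list that differed by more than 1.5-fold, both lower in replicate 2. The folds use scaling by library total only, and that of Egr1 lies at the edge. The transducers of the BMP arm stood at 10.5 ± 0.786 CPM for Smad1, 38.8 ± 1.65 CPM for Smad5 and 1.49 ± 0.346 CPM for Smad9, and those of the TGF-beta arm at 72.7 ± 1.42 CPM for Smad2 and 64.4 ± 4.39 CPM for Smad3. The 3 genes not detected were the ligand genes Bmp4, with 8 and 2 counts, and Bmp6, with 2 and 0, and the receptor gene Bmpr1b, with 0 and 2. The transducers were set apart by arm after their values were seen.

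Genes that E proteins switch on in lymphocytes were detected in 4 of 12 cases (33.3%, beside 47.5% of all genes), with a median of 0.148 CPM. Ebf1, Pax5, Cd79a, Cd79b and Cd3e of this list also stand among the lymphoid markers above. Il7r, an interleukin receptor gene, stood at 48.0 and 69.6 CPM, followed by Cd79a at 6.40 ± 0.279 CPM and Cd79b at 3.93 ± 0.266 CPM, which encode the signalling chains of the B cell receptor. Rag1, Rag2 and Igll1 had 0 counts in each library. By contrast, 11 of 12 cell cycle genes on which ID and E proteins are thought to act were detected, with a median of 77.9 CPM. Cdk6, a kinase of the cell cycle, stood at 377 ± 7.44 CPM, Ccnd3, a cyclin gene, at 316 ± 12.8 CPM and Cdkn1a, a cell cycle inhibitor gene that E proteins activate, at 157 ± 13.8 CPM. The difference between these shares was not tested. With scaling by library total, 1 detected lymphoid target and 2 detected cell cycle genes differed by more than 1.5-fold between the libraries. Ebf1 stood at 5.11 and 2.56 CPM, Ccnd2 at 36.0 and 14.3 CPM and Ccnd1 at 111 and 72.9 CPM, the last at the edge. Other repressors of the helix-loop-helix class were detected in 4 of 8 cases. Bhlhe40, at 954 ± 62.4 CPM, exceeded each member in reads, while Hes6 stood at 31.6 ± 0.444 and Bhlhe41 at 21.0 ± 0.541 CPM and Heyl had 0 counts.

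**Figure D4:**
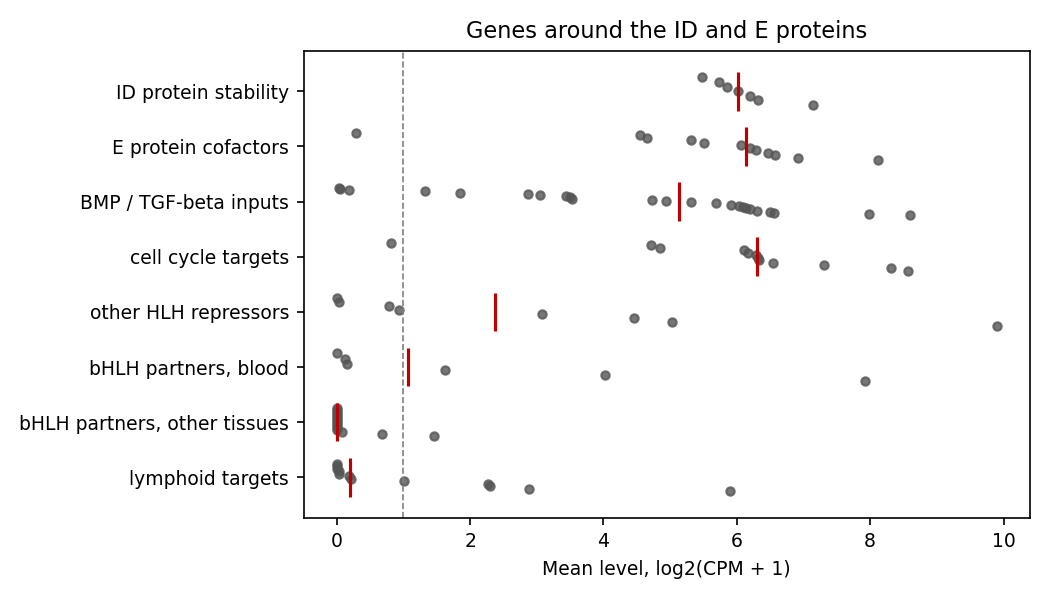
Mean level, log2(CPM + 1), of each gene (grey points) in 8 lists around the ID and E proteins, with the list's median (red) and a dashed line at 1 CPM. Cofactor, stability and cell cycle genes lie mostly to the right, and most lymphoid targets and partners of other tissues near 0. Detection needs 1 CPM in each library, which Twist1 and Pax5, to the right of the line, did not reach in both.

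The E-box, CANNTG on both strands, is the motif to which this family is tied, and the members' own promoters are shown to give the letters in which it occurs. The 250 bases before the start site were taken from RefSeq (GRCm38.p6, not the build of the deposited files). Windows were matched for Id2, Id3, Tcf3 and Tcf12, the last with 3 windows. No window of Id1 was found, and Tcf4 was left out of the search, so neither was examined for motifs. E-boxes are in capitals in the lines below, which give Id2 at chr12:25096093-25096342 on the minus strand, Id3 at chr4:136143572-136143821 on the plus strand and Tcf3 at chr10:80433636-80433885 on the minus strand, each read 5′ to 3′ towards the gene.
Id2: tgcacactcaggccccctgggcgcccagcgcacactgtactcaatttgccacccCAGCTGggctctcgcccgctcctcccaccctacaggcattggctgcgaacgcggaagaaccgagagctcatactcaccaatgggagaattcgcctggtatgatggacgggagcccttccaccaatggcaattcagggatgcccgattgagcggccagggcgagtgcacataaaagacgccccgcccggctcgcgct
Id3: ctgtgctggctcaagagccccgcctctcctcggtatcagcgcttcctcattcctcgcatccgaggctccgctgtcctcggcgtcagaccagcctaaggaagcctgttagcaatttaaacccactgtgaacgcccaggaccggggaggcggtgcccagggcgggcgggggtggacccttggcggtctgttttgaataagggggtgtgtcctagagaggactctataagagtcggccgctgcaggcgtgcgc
Tcf3: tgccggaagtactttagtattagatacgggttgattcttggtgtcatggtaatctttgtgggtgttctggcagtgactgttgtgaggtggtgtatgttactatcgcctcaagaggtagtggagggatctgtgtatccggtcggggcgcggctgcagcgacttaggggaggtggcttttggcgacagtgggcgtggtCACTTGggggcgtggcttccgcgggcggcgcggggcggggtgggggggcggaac

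The Id2 window held 1 E-box of the form CAGCTG and the Tcf3 window 1 of the form CACTTG, while the Id3 window held 0. Of the 3 Tcf12 windows, 2 held 1 E-box each and the other held 0. Among all 32851 windows of this length 66.2% held at least 1 E-box and 13.0% held the form found at Id2. One form of the site to which ETS factors such as PU.1 bind, GGAAGT, was searched on either strand. It was found in the Tcf3 window and in 1 Tcf12 window, beside 19.7% of all windows. Other forms of the ETS site were not searched. The GATA motif, searched as AGATAA on either strand, was found in none of the windows of Id2, Id3, Tcf3 and Tcf12, beside 9.99% of all windows. Such matches describe these letters only and show neither binding nor its absence.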

How the data were processed

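The authors deposited, for each of the 2 BALB/c RNA libraries, a table of read counts per gene, whole numbers without normalization, as tested on the files. Per the submitters' processing notes, STAR 2.5, featureCounts, Trim Galore 0.4.2, FastQC 0.11.7, Picard 1.89 and the mm9 build were used, with roles not given; the strand setting of counting is not given in the sources used here, and overlapping genes are therefore uncertain. Per the file headers both libraries ran on the same run and lane. CPM was computed as the count over the library total. Counting intervals are exact (Clopper-Pearson, 95%) and cover counting error only, with each count taken as an independent read. Many low counts were even, such as 8 and 4 for Id4 and 18 and 0 for Runx1t1, though some were odd. Whether both reads of a pair were counted was not tested, and if so the intervals are too narrow. The ratios between libraries were tested on simulated data drawn with independent counts, which cannot show whether real counts are independent. No count model was fitted: edgeR 4.0.16 and DESeq2 1.42.0 (R 4.3.3) gave scaling factors. Python 3.11.15, numpy 2.4.6, pandas 2.3.3, scipy 1.17.1 and matplotlib 3.10.9 were used.

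Members and lists were chosen with earlier results of these data known. From each list of related genes up to 3 detected genes with the highest mean CPM are named, from each marker list up to 2 and markers at 0. A marker under this rule is not reported here. Other genes named from these lists were chosen after their values were seen. Likeness of pattern could not be ranked over 1 group. The 13 peak lists of the samples were not used, because gene positions of the mm9 build were not used here, and 2 count columns and 6 peak lists that match no sample label were not used either. The levels in other myeloid cells were thus not analysed here. RefSeq promoters come from GRCm38.p6.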

Additional observations from a re-analysis of the deposited data

How the results depend on the processing

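All 6 members were detected at minimums of 0.5, 1 and 5 CPM and in each library alone, and 0 of 6 differed by more than 1.5-fold between the libraries with scaling by total, TMM or DESeq2 size factors. The related genes detected numbered 56 at 5 CPM, 64 at 0.5 CPM and 62 and 63 in single libraries. The inhibitor share ranged from 74.8 to 75.8% when a library was left out, was 75.3% with Id4 added and moved to 55.2% without Id2, by the removal of its reads. The level of Id1 in replicate 2 over replicate 1 crossed 1, from 0.977 to 1.02 with TMM and 1.03 with DESeq2 size factors; the other 5 members kept their direction. Partners of other tissues had 1 gene detected in replicate 1 alone, and at 5 CPM detection fell to 2 lymphoid targets, 5 dendritic cell markers, 2 lymphoid markers and 5 progenitor markers; the other lists kept counts within 1.5 times. With only genes of 10 or more counts as background, 81.3% were detected, and 17.4% differed by more than 1.5-fold. A share per length and peaks at the members' genes were planned and not run, for want of lengths and mm9 positions here. No paired analysis was possible because the RNA libraries form 1 group.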
